A study of Homo sapiens with 34 samples.

Results

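The EZH2 peaks that lay on H3K27me3 in androgen-independent prostate cancer cells are described here, 2267 of the 11852 EZH2 peaks (19.1%) that the authors listed for these cells on chromosomes 1 to 22. A peak was taken when it shared at least 1 bp with a peak of either of 2 H3K27me3 lists from the same cells, and is called a marked EZH2 peak below. The peak positions themselves chose the members, so their presence on the mark in AI cells is no finding. The cells were LNCaP, an established prostate cancer line that depends on androgen (AD), and an androgen-independent derivative (AI) kept in medium with charcoal-stripped serum. Chromatin immunoprecipitation gave 2 H3K27me3 lists each for AD and AI cells, 2 EZH2 lists for AD cells and 1 for AI cells, so the member list rests on 1 EZH2 sample and has no replicate. RNA-seq had 2 libraries for each of 6 groups, AD or AI cells left untreated, 24 h after a mock siRNA and 24 h after an siRNA against EZH2 (siEZH2). Per the labels' protocol the transfected cells were LNCaP/abl, an androgen-independent line, yet siRNA names also appear in titles of AD libraries; groups follow the titles. Whether replicates came from separate cultures is not stated, so each p-value reflects only the spread of the libraries at hand, possibly a technical one.

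EZH2 is the catalytic subunit of Polycomb repressive complex 2 (PRC2), which trimethylates lysine 27 of histone H3. The resulting mark, H3K27me3, spreads over broad domains at genes that are held silent, typically developmental regulators, and other PRC2 subunits bind the mark and help it persist through cell division. In prostate cancer EZH2 is known both for silencing genes in this way and for acting at other sites as a partner of transcription factors without the mark, so EZH2 peaks with and without H3K27me3 are commonly kept apart.

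Few marked EZH2 peaks sat on a gene start. Of the 2101 members on chromosomes whose starts were used, 23 (1.10%) contained a RefSeq start, and these touched 24 genes. Among the 9052 AI EZH2 peaks without H3K27me3 on these chromosomes, 52 (0.57%) contained one. The reference did not hold a start for every gene on these chromosomes, so counts of starts here and below may be too low. The upstream sequences of 5 of these 24 genes are shown because a marked EZH2 peak covers an annotated start of each. PALD1 is a phosphatase domain protein, ZEB1 a repressor of epithelial genes and DMRT1 a transcription factor of testis development. MEG3 is an imprinted long noncoding RNA, and NOX4 is an oxidase that makes hydrogen peroxide. Each sequence is the 250 bases before 1 annotated start, 5′ to 3′ on the gene's strand, from RefSeq (GRCh38.p14), with every CG dinucleotide in capitals.
PALD1: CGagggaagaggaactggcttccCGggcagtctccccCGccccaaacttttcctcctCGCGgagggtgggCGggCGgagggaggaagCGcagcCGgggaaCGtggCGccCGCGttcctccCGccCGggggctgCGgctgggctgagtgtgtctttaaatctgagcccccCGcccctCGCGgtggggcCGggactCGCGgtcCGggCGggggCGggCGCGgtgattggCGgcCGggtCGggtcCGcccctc
ZEB1: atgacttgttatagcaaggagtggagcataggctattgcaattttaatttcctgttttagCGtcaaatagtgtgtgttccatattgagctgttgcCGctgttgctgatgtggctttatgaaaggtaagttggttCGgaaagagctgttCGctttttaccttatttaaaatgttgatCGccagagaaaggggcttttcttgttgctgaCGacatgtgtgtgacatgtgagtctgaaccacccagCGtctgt
DMRT1: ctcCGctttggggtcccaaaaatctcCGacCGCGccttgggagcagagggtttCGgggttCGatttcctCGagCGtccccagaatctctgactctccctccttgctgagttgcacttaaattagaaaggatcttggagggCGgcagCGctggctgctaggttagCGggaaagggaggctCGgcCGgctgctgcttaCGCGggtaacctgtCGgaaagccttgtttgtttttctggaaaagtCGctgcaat
MEG3: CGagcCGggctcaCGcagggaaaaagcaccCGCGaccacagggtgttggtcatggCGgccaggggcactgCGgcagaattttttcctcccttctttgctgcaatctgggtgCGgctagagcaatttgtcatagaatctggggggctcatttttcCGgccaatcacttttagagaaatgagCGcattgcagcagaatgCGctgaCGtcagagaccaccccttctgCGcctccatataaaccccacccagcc
NOX4: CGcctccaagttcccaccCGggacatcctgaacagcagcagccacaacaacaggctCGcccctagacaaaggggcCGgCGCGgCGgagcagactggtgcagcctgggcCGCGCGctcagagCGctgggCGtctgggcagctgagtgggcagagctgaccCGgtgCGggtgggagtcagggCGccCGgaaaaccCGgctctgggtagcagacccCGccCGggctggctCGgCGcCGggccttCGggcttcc
The PALD1 window lies at chr10:70478517-70478766 on the plus strand, holds 31 CG dinucleotides, and has part of its bases under a peak with a score of 54.57. For ZEB1 the window chr10:31321410-31321659 (plus strand) holds 7 and is wholly under a peak with a score of 50.02. DMRT1 has 17 CG dinucleotides in chr9:843039-843288 (plus strand), MEG3 has 13 in chr14:100825858-100826107 (plus strand) and NOX4 has 23 in chr11:89491376-89491625 (minus strand). Of all 33725 starts, 11.0% had at least as many CG dinucleotides as PALD1 and 58.8% at least as many as ZEB1. The windows of PALD1 and MEG3 were under a peak for 140 and 144 of their 250 bases. The letters CG read the same on both strands. The median was 12 CG dinucleotides before the 406 starts within 5 kb of a marked EZH2 peak, 13.5 before the 26 starts inside one and 11 before all starts, and 43.3% of the 406 had 15 or more against 43.1% of all.

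The genes at these starts had low levels in both cell types. Of the 24 genes 14 were listed in the RNA table, and their highest value in any of the 6 AI libraries was 0.23 RPKM (a read density scaled by gene length and by library), and in any AD library 0.85 RPKM. ZEB1 was listed at 0.01 and 0.06 RPKM in untreated AI cells and at 0 in all 4 transfected AI libraries. MEG3 reached 0.04 RPKM in 1 siEZH2 library of AI cells and was at 0.01 or less in the other 5, and NOX4 reached 0.01 in 1 untreated library and was at 0 in the others. PALD1, the only one of the 14 that passed the filter on low values described below, was at 0.12 and 0.03 RPKM in AI mock against 0.73 and 0.51 in AD mock, and its peak overlapped no AD H3K27me3 peak. MAGI2-AS3 and MIR100HG, a pair of long noncoding RNAs, did not exceed 0.05 and 0.03 RPKM in any AI library. The use of strand in the authors' counting is not given in the sources used here, so reads of MAGI2-AS3 and of a gene on the opposite strand cannot be told apart.

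Most members lay away from the starts used. Those on chromosome 8, whose starts were not used, are left out of these shares. Starts missing from the reference elsewhere would lower the shares and lengthen the distances. A start lay within 1 kb of 5.05% of the members (95% exact interval 4.15% to 6.07%) and of 2.57% (2.26% to 2.92%) of the 9585 AI EZH2 peaks without H3K27me3. Within 5 kb the shares were 14.1% and 13.2%, and the median distance to the nearest start was 35156 bp for members and 28419 bp for the others. Gene bodies held 56.0% of members against 65.9% of the other EZH2 peaks. All intervals on peaks cover counting error only, since peaks of 1 list share their library. Some long genes held several members each: MACROD2, an ADP-ribose hydrolase gene, held 9, while the ion channel gene ASIC2, the cadherin CDH13 and the synaptic adhesion gene NRXN3 held 8 each, and CSMD2 held 7. MACROD2 spans 2057.7 kb and CSMD2 651.8 kb, and the part of gene length in these counts was not tested.

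The peak caller's score, the authors' own value, had a median of 57.9 for members and 57.4 for the other AI EZH2 peaks, and the median width was 451 and 446 bp. Only 35 members had a score of 100 or more. The highest-scoring member was chr10:31095882-31096553 (GRCh38) with 142.47, which lay wholly under a peak in all 4 H3K27me3 lists of AI and AD cells. Next among members without a start within 5 kb came chr1:82602418-82602871 (134.73), chr15:91297696-91298386 in the synaptic vesicle gene SV2B (133.99), chr3:52372842-52373215 in the dynein gene DNAH1 (126.07) and chr1:160482064-160482769 (124.36). The 3 genes with a start within 5 kb of the 20 highest-scoring members were ARID3C, a DNA-binding protein, with a peak of score 139.47 at chr9:34626918-34627460, RARG, the gamma retinoic acid receptor, with 117.78 at chr12:53235068-53235758, and OLFM1, a secreted neuronal glycoprotein, with 115.14 at chr9:135088634-135089444. Of these 20, 16 overlapped AD H3K27me3. Members near the edge of the rule overlapped the mark by as little as 10 bp, and the nearest EZH2 peak left out missed it by 2 bp; 25 members had under 50 bp of overlap and 28 other peaks a gap under 50 bp, while 90.4% of members lay wholly inside the mark.

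The H3K27me3 peaks that carried an EZH2 peak were broad. Their median width was 4959 bp in the first AI list against 2115 bp for peaks without one, and 4724.5 against 1977 bp in the second. A wider peak has more room for an EZH2 peak, and its part in this difference was not tested. Within the host, 52.4% and 52.5% of members had their centre in the middle 50% of its length. The share of AI EZH2 peaks that were members went from 13.8% on chromosome 6 (10.9% to 17.3%) to 28.7% on chromosome 20 (24.7% to 32.9%), and was 23.8% on chromosome 8. A total of 1217 members lay in both AI H3K27me3 lists and 1050 in only 1.

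Most marked EZH2 peaks were also under H3K27me3 in androgen-dependent cells. The first AD list covered 61.5% of members and the second 57.2%, at least 1 of them covered 75.4% (73.6% to 77.2%), and both covered 43.3%. The mark was in neither AD list at 558 members (24.6%). Among AI EZH2 peaks without AI H3K27me3 only 9.26% (8.69% to 9.86%) overlapped AD H3K27me3, a mark the rule did not use. Of members in both AI lists 86.3% (84.2% to 88.2%) were marked in AD, and of members in 1 list 62.8% (59.8% to 65.7%).

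AD marking went up with the breadth of the domain, with or without EZH2. Peaks of each AI list were split by width into 4 classes of equal number. In the narrowest class of the first list, 62.8% (54.5% to 70.6%) with an EZH2 peak and 51.5% (50.8% to 52.3%) without one were also marked in AD. In the widest class the shares were 97.1% (95.9% to 98.1%) and 94.7% (94.3% to 95.0%). The second AI list gave 54.6% (44.8% to 64.1%) and 44.2% (43.4% to 44.9%) in the narrowest class and 92.0% and 91.9% in the widest. Before the split by width the shares were 88.9% and 72.5% in the first list, so the gap between peaks with and without EZH2 was smaller within these classes than over all peaks.

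**Figure D1:**
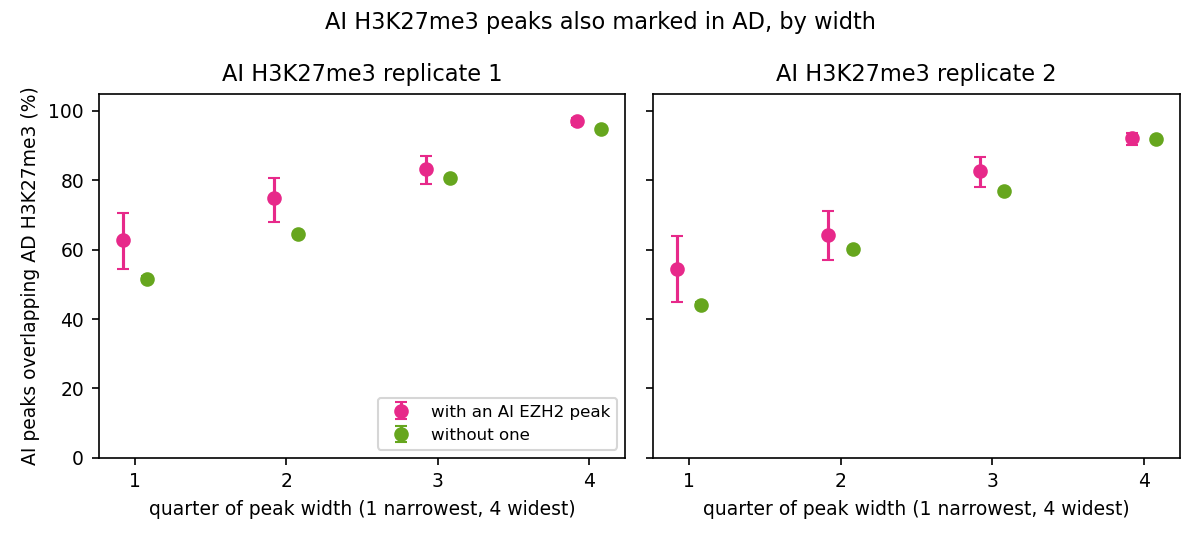
Share of AI H3K27me3 peaks that overlap H3K27me3 in AD cells (y axis, percent) by class of peak width (x axis, 4 classes of equal number), for each AI list, with an AI EZH2 peak (pink) and without one (green). Bars are 95% exact intervals; in both lists the shares climb from the narrowest class (62.8% and 51.5% in the first list) to the widest (97.1% and 94.7%).

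Few members overlapped an EZH2 peak of AD cells, and the AD lists themselves shared few of these sites. Of the members, 8.16% overlapped the first AD EZH2 list and 1.94% the second, and among AI EZH2 peaks without the mark the shares were 7.79% and 1.68%. The AD lists overlapped 185 and 44 members, and 11 members were in both. These lists differ in length, with 53638 and 12317 peaks on chromosomes 1 to 22, against 11852 for AI. Seen from the AD side, 20.6% and 21.3% of the AD EZH2 peaks overlapped AI H3K27me3, beside the 19.1% of AI EZH2 peaks that are the members.

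Markers of other cell types summed per library to 0.42 to 5.18 RPKM for 5 basal, 7.31 to 51.5 for 6 neuroendocrine and 1.45 to 5.92 for 8 blood or stromal genes. Replicates correlated at 0.973 to 0.99 across genes, and RPKM carries no read totals. Mitochondrially encoded genes took 18.4% to 33.5% of the summed RPKM in untreated libraries and 2.1% to 4.07% in transfected ones, so the untreated and mock comparisons below differ in this share; its part was not tested. EZH2, the target of the siRNA, was at 10.11 and 12.62 RPKM in untreated AI, 7.07 and 5.44 in AI mock and 3.6 and 4.33 in AI siEZH2 libraries. In AD cells it was at 5.21 and 6.94 RPKM untreated, 10.95 and 12.48 after mock and 11.52 and 10.73 after siEZH2. The AI siEZH2 libraries lay below both AI mock libraries, but the log2 difference of -0.59 (SE 0.18) did not pass the test (limma adjusted p = 0.126), and the AD siEZH2 libraries lay within or just below the AD mock range.

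A start within 5 kb of a marked EZH2 peak was found for 332 genes, 197 protein-coding and 135 long noncoding, of which 191 were listed in the RNA table. These genes were seldom expressed in AI cells. In untreated AI cells 13.6% of the listed genes reached 1 RPKM in both libraries, against 54.7% and 54.0% of all 14773 listed genes with a start. After mock transfection 11.0% and 12% did, and after siEZH2 10.5% and 12.6%. Genes near AI EZH2 peaks without H3K27me3 stood on the other side of the average, with 63.2% and 63.3% at 1 RPKM or more in untreated AI cells. Median levels were 0.01 and 0 RPKM for the genes of marked peaks and 3.83 and 3.37 RPKM for those of unmarked peaks.

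Low expression went with the mark at the start itself. A gene counted as having its start inside the mark when any of its annotated starts lay there, also one away from the member. The same rule holds for all starts named as inside or outside the mark below. By this rule the start lay inside AI H3K27me3 for 282 of the 332 genes and outside it for 50. Of the listed genes with the start inside, 7.88% and 7.27% reached 1 RPKM in untreated AI cells (n = 165 genes), and 50.0% and 53.8% of those with the start outside did (n = 26). Genes whose start lay in AI H3K27me3 with no EZH2 peak within 5 kb gave 11.4% in both libraries (n = 1992). This split was made after the levels had been seen.

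**Figure D2:**
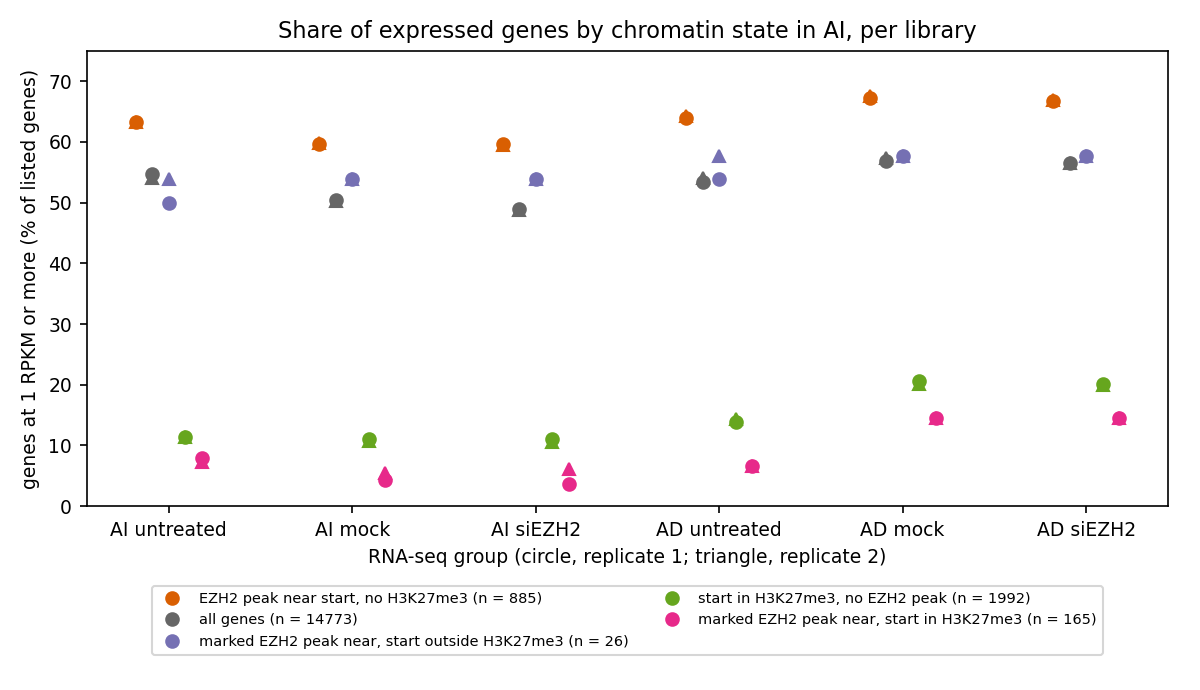
Share of listed genes at 1 RPKM or more (y axis, percent) in each of the 12 RNA-seq libraries (x axis, 6 groups; circles, replicate 1; triangles, replicate 2) for 5 gene sets defined by EZH2 and H3K27me3 peaks in AI cells. Genes with a marked EZH2 peak and a covered start (pink) lie between 3.64% and 14.5% in every library, and those with an uncovered start (purple) between 50.0% and 57.7%.

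The developmental genes near marked EZH2 peaks were among the silent ones. Of 205 Polycomb-bound transcription factor genes 133 had a start in the reference, and the others could not be found. The same limit left 28 of 45 signalling, 19 of 27 EZH2-silenced and 36 of 60 neuronal genes. Of the 133, 5 were near a member: NEUROD2 and NEUROG1, which drive neuronal differentiation, TBXT, the mesoderm factor brachyury, HAND2 of heart and limb, and DMRT1. Among 28 signalling genes the members were WNT7A, SHH, the hedgehog ligand, and SFRP2, a secreted Wnt antagonist. The B-lymphocyte factor gene EBF1 came from a list of 19 EZH2-silenced prostate genes, and the glutamate receptor gene GRIK3 and the vesicular glutamate transporter gene SLC17A7 from 36 neuronal genes. None of these 11 genes passed the filter on low values. SLC17A7 had the highest AI value, 0.26 RPKM in 1 siEZH2 library, and EBF1 was at 0 in all 6 AI libraries. SHH did not exceed 0.03 RPKM in AI cells, nor WNT7A 0.03 or NEUROG1 0.08. Among listed genes with a start, the shares near members were 3.76% (transcription factors), 10.7% (signalling), 5.26% (EZH2-silenced) and 5.56% (neuronal), against 1.26% of all 26246 genes with a start. No gene of the PRC2, PRC1, basal or neuroendocrine lists had a start near a member. Only 11 of 14, 17 of 20, 2 of 5 and 2 of 6 of their genes had a start in the reference, too few to read this as a result.

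Some genes near marked EZH2 peaks were expressed. MRPS22, a protein of the mitochondrial ribosome, was highest at 54.58 and 54.13 RPKM in untreated AI cells. R3HDM4 followed at 30.93 and 30.88 RPKM, YIF1A, which acts between the endoplasmic reticulum and the Golgi, at 25.88 and 25.75, and EGFL7, a secreted vascular factor, at 20.04 and 12.46. CAPN2, a calcium-activated protease, was at 15.17 and 14.62 RPKM, QDPR, which recycles tetrahydrobiopterin, at 14.08 and 13.35, PIK3CD, a catalytic subunit of phosphoinositide 3-kinase, at 12.62 and 10.71, and DLGAP4, a scaffold protein, at 8.75 and 13.12. EGFL7, PIK3CD and DLGAP4 had at least 1 annotated start inside AI H3K27me3, and the other 5 had none. Which start was transcribed was not analysed. EZH2 peaks near MRPS22 and R3HDM4 were among the weakest, with scores of 50.23 and 50.42. Those near QDPR (71.36) and CAPN2 (61.1) lay above the member median of 57.87. Those near EGFL7, YIF1A, DLGAP4 and PIK3CD lay just below it, from 55.52 to 56.38.

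Differences between AI and AD cells were tested with limma on log2(RPKM + 0.5), in 1 fit over all 12 libraries with Benjamini-Hochberg adjustment over 14227 genes that reached 0.5 RPKM in at least 2 libraries. Fold changes on this scale understate the change of low genes. Of the 191 listed genes 57 passed that filter. Of these, 17 reached 0.5 RPKM only in AD libraries and none only in AI libraries. A gene that passed through the AD libraries alone had at least 2 AD libraries above every AI library, in whichever state. The filter thus favours lower values in AI, though not equally in each comparison. The counts below therefore describe the genes and support nothing on the whole set.

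In untreated cells 26 of the 57 genes differed between AI and AD, 12 higher and 14 lower in AI. Over all genes tested 34.6% differed, 22.2% higher and 12.4% lower. That split depended on scaling: it was 16.4% higher and 16.1% lower with quantile normalization, and 14.2% higher and 17.5% lower with trimmed-mean scaling. The median log2 difference was -0.08 for the 57 and 0.13 for all genes. The lower genes were led by RARG, which was at 1.86 and 1.78 RPKM in AI against 5.84 and 6.14 in AD, a log2 difference of -1.48 (SE 0.11, limma adjusted p = 1.84e-05). Its peak was absent from both AD H3K27me3 lists. LOX, lysyl oxidase, which crosslinks collagen, was listed at 0 in both AI libraries and at 0.62 and 0.83 RPKM in AD. GAREM2, an adaptor of growth factor signalling, was at 0.33 and 0.34 RPKM in AI against 1.44 and 1.64 in AD. TERT, the catalytic subunit of telomerase, was at 0.25 and 0.17 RPKM in AI and at 1.15 in both AD libraries. The AI and AD libraries did not overlap for any of these 4 genes, which follows largely from their choice as the largest called falls. The other named falls were PGF, ENDOV, MLXIPL, KCNN1, PLXND1 and EBF4, with log2 differences from -1.02 to -0.76.

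The untreated rises were led by 2 genes known from neurons. OLFM1 was at 3.47 and 3.72 RPKM in AI against 0.08 and 0.11 in AD (log2 difference 2.78, SE 0.19, limma adjusted p = 9.59e-06), and its start lay inside AI H3K27me3. Of its 2 members, the higher-scoring one was in both AD H3K27me3 lists and the other in 1. NSG1, an endosomal protein of neurons, was at 2.69 and 2.17 RPKM in AI and at 0.12 and 0.13 in AD (2.22, SE 0.17, adjusted p = 1.87e-05). TLL2, a metalloprotease related to tolloid, rose by 1.42 and CAPN2 by 1.19 on the log2 scale. PARM1, BHLHE41, WSCD1, LPIN1, SCFD2 and SH3GLB1 rose by 0.57 to 0.98. The count of 26 fell to 16 without untreated AI replicate 2 and to 8 when only the 4 untreated libraries were fitted, and with trimmed-mean scaling the split was 6 higher and 15 lower. The calls of KCNN1 and PLXND1 were lost without any 1 of the 4 untreated libraries (adjusted p from 0.0504 to 0.0566 and from 0.0567 to 0.0976), and 6 named calls without untreated AI replicate 2, the others being TERT (0.0588), LPIN1 (0.0666), BHLHE41 (0.0732) and PGF (0.0851). Without AD replicate 1 the calls of LPIN1 (0.105) and PGF (0.0562) were lost, without AD replicate 2 those of ENDOV (0.0917) and WSCD1 (0.0506), and without AI replicate 1 that of ENDOV (0.0922). LPIN1 (0.0516) and SCFD2 (0.0517) were also lost with trimmed-mean scaling, and EBF4, ENDOV, LPIN1, MLXIPL, PGF, SCFD2 and SH3GLB1 in the fit of the 4 untreated libraries.

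After mock transfection more genes were lower than higher in AI, both near marked EZH2 peaks and over the table. Of the 57 genes 41 differed, 4 higher and 37 lower, and over all genes tested 55.7% differed, 12.2% higher and 43.5% lower. The median over all genes was -0.41 on the log2 scale. Quantile normalization moved that median to 0.02 and left 20 of the 57 genes lower and 9 higher, beside 24.8% and 24.2% of all genes, while trimmed-mean scaling gave 29 lower and 7 higher, beside 27.7% and 25.9%. All 17 genes that had passed the filter through AD libraries alone were among the 37, and the other 40 gave 20 lower and 4 higher. With the start inside the mark 32 of 41 genes were lower, which include all 17 that passed the filter through AD libraries alone. Of 602 genes with a covered start and no EZH2 peak 425 were lower, and how many of these passed through AD libraries alone was not counted.

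EBF4, a transcription factor of the early B-cell factor family, had the largest fall, from 3.45 and 3.69 RPKM in AD mock to 0.19 and 0.18 in AI mock (log2 difference -2.57, SE 0.15, limma adjusted p = 1.53e-06). PLXND1, a receptor for semaphorins, was at 0.28 and 0.24 RPKM in AI mock against 3.39 and 3.86 in AD mock, and KCNN1, a calcium-activated potassium channel, at 0.12 and 0.19 against 3.19 and 2.63. RARG was at 2.64 and 2.65 RPKM in AI mock and at 14.71 in both AD mock libraries. In all 4 genes the AI mock libraries lay below both AD mock libraries, which follows largely from their choice among the called falls. The same direction had been called in untreated cells. The starts of EBF4, PLXND1 and KCNN1 lay inside AI H3K27me3, and only that of KCNN1 also inside AD H3K27me3. Of the other named falls, BRSK2, a neuronal kinase (-2.36), the receptor gene TNFRSF8 (-2.34) and BAIAP3, a regulator of exocytosis (-2.31), were followed by LINGO1 (-1.87), TMEM158 (-1.85) and C2CD4C (-1.8).

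The 4 genes higher in AI after mock transfection were HSPA13, LPIN1, DLGAP4 and MRPS22. HSPA13, a chaperone of the heat shock protein 70 family, was at 10.11 and 10.51 RPKM in AI mock against 3.75 and 4.93 in AD mock (log2 difference 1.17, SE 0.14, limma adjusted p = 8.92e-05). LPIN1, a phosphatidate phosphatase of lipid synthesis, was at 8.88 and 8.96 RPKM against 3.19 and 4.32. Starts of HSPA13, LPIN1 and MRPS22 lay outside AI H3K27me3, and that of DLGAP4 inside. Leaving out any 1 of the 4 mock libraries ended the DLGAP4 call (adjusted p from 0.0677 to 0.0941), and that of MRPS22 without AD mock replicate 1 (0.0512).

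**Figure D3:**
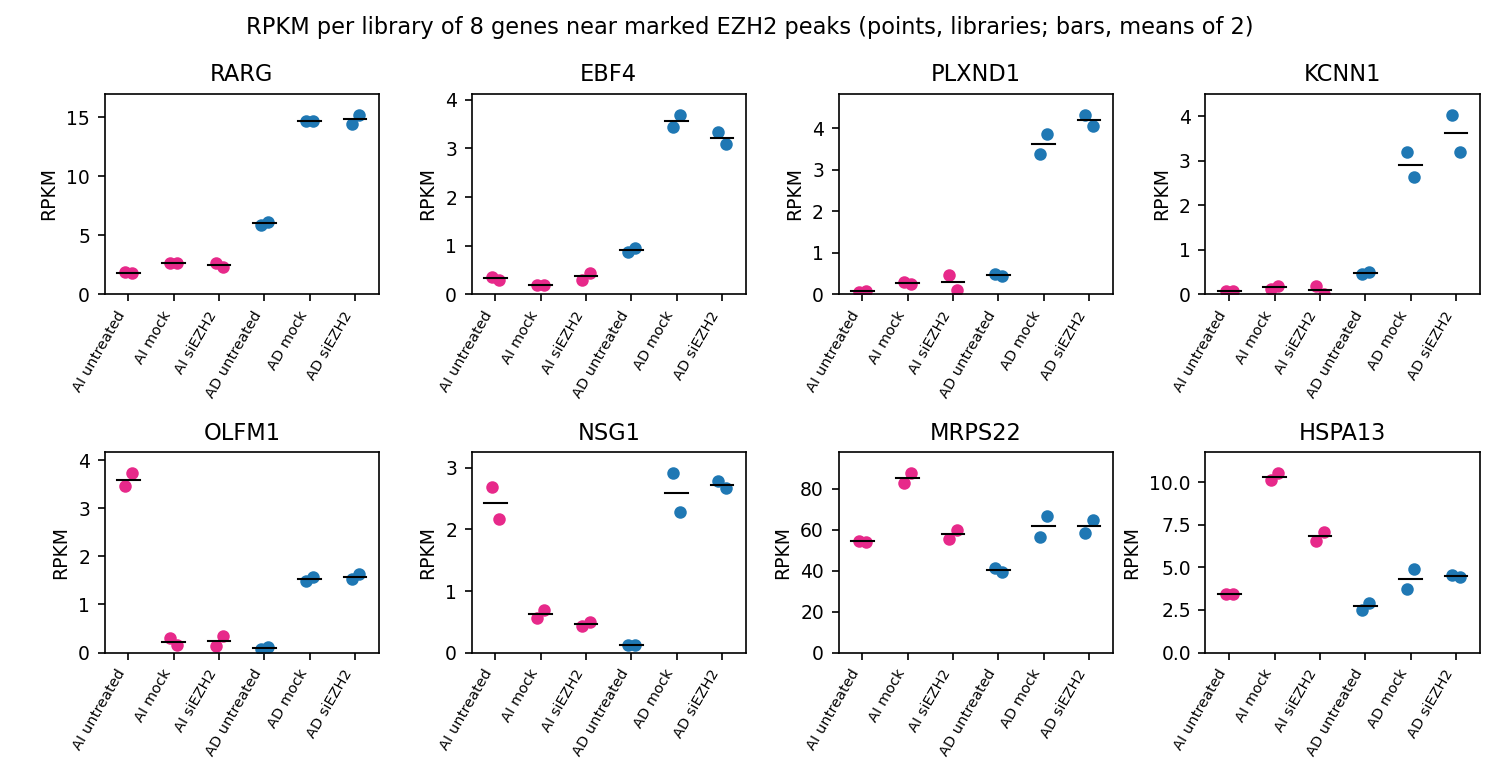
RPKM (y axis) of 8 genes near marked EZH2 peaks in each library of the 6 RNA-seq groups (points; pink, AI; blue, AD; bars, means of 2 libraries). RARG, EBF4, PLXND1 and KCNN1 are lower in AI than in AD in each state, while OLFM1 and NSG1 are higher in untreated AI and lower in AI mock than in the matching AD group.

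Of the 57 genes 21 were called in both, 13 in the same direction and 8 in opposite directions. The 13 comprised 11 lower genes (BRSK2, EBF4, ENDOV, GAREM2, KCNN1, LOX, MAGI2, PLXND1, RARG, TERT and TNFRSF8) and the 2 higher genes LPIN1 and MRPS22. All 8 genes of opposite direction were higher in untreated AI and lower in AI mock. Over all genes tested 22.2% were higher in untreated AI and 43.5% lower in AI mock. How many of all genes were called in both, in the same or in opposite directions, was not counted. The counts of 21, 13 and 8 therefore describe these genes and cannot be read as a trait of the members. Tested as a difference of differences in the same fit, a contrast added after these directions were seen, 36 of the 57 genes passed, 3 with a higher and 33 with a lower mock difference. Over all genes 50.2% passed, 8.99% higher and 41.2% lower, and the median was -0.79 for the 57 against -0.55 for all. The median over all genes was 0.009 with quantile normalization and 0.001 with trimmed-mean scaling, and 24 and 27 genes near marked EZH2 peaks then passed.

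**Figure D4:**
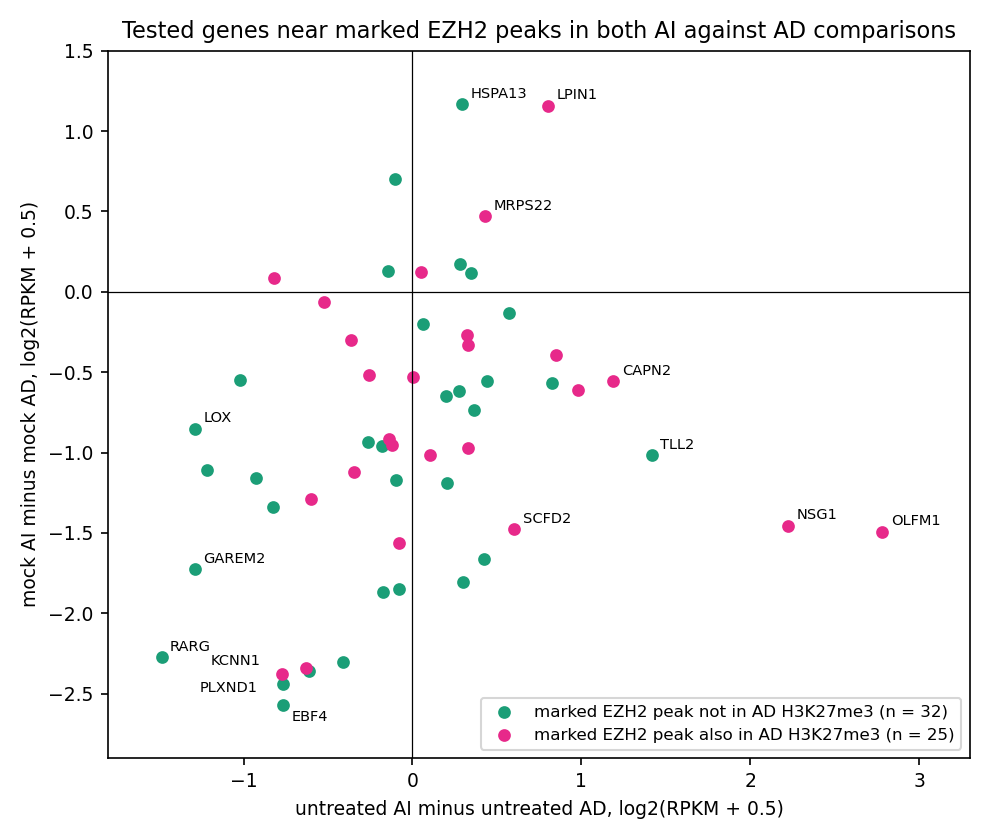
Log2 difference between AI and AD in untreated cells (x axis) and after mock transfection (y axis) for the 57 tested genes near marked EZH2 peaks, green where the peak lies in no AD H3K27me3 list and pink where it lies in at least 1. RARG, GAREM2 and LOX sit low in both, while OLFM1 (2.78 and -1.49) and NSG1 (2.22 and -1.45) sit right and below.

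Genes whose marked EZH2 peak was absent from AD H3K27me3 reached 1 RPKM in AD in a larger share than those marked in both AD lists, a difference that was not tested. After mock transfection 33.8% of 68 listed genes without the AD mark reached 1 RPKM in both AD libraries, against 14.7% and 16.2% in AI. Of the 62 genes with the mark in both AD lists 16.1% did in AD and 12.9% in AI. In untreated cells the shares without the AD mark were 22.1% in AD and 19.1% in AI. With the mark in both AD lists they were 11.3% and 12.9% in AD and 12.9% in AI. Other gene sets also had smaller shares in AI mock than in AD mock. Over all listed genes with a start these were 50.4% and 50.2% against 56.9% and 57.3%. For genes with a covered start and no EZH2 peak they were 11.1% and 10.7% against 20.6% and 20.1%. Among tested genes without the AD mark 23 of 32 were lower in AI mock and 2 higher, and among those with it 14 of 25 were lower and 2 higher, beside 43.5% of all genes lower. With quantile normalization these became 12 lower and 5 higher of 32, and 8 lower and 4 higher of 25. The lower genes of the main fit include all 17 that passed the filter through AD libraries alone. How these split between genes with and without the AD mark was not counted, so the counts cannot be compared. The difference between the shares was not tested.

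Transfection of the siRNA against EZH2 was followed by few changes near marked EZH2 peaks. Of the 57 genes 1 changed against mock in AI, MRPS22, and none was higher. Over all genes tested 1.46% changed, 0.0703% higher and 1.39% lower, so the members' share was near that of the table. With limma 6 of the 57 genes had an unadjusted p under 0.05, against 2675 of all 14227. MRPS22 was at 83.03 and 87.43 RPKM after mock and 55.42 and 59.97 after siEZH2, and fell by 0.56 on the log2 scale (SE 0.11, limma adjusted p = 0.0475). The call was lost without any 1 of the 4 libraries (adjusted p from 0.135 to 0.246) and with other scalings, and the start of MRPS22 lay outside the mark. HSPA13 had a log2 difference of -0.56 that did not pass (adjusted p = 0.0752).

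Genes with a covered start stayed low after siEZH2. Among genes with a covered start 3.64% and 6.06% reached 1 RPKM after siEZH2 and 4.24% and 5.45% after mock. NEUROG1 went from 0 in both mock libraries to 0 and 0.08 RPKM, HAND2 to 0 and 0.05, and TBXT to 0.05 and 0.11, values too low to be tested. ZEB1 was at 0 in all 4 of these libraries. RPKM values give no read totals, so no upper limit can be attached to a value of 0. The cells were collected 24 h after transfection, EZH2 RNA itself did not fall past the threshold, and H3K27me3 after siEZH2 was not analysed here.

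Genes of the Polycomb machinery were read from lists chosen for this purpose. Of 13 tested PRC2 genes 3 were higher and 2 lower in untreated AI, and 1 was higher and 9 lower after mock transfection, beside 34.6% of all genes called in untreated cells and 55.7% after mock (12.2% of all genes higher and 43.5% lower). EZH2 rose by 0.86 on the log2 scale in untreated AI (SE 0.18, limma adjusted p = 0.00606) and fell by 0.86 after mock (adjusted p = 0.00286), a call that was lost with quantile normalization (-0.35, adjusted p = 0.155). Of 20 tested PRC1 genes 5 were higher and 7 lower in untreated AI, and 4 higher and 5 lower after mock. After siEZH2 1 of 13 PRC2 genes was lower than mock and none of the 20 PRC1 genes passed, with 4 and 1 at an unadjusted p under 0.05.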

How the data were processed

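RNA-seq levels were deposited by the authors as RPKM with 2 decimals for 12 libraries; per the submitters' processing notes, RNA-seq went through cutadapt, TopHat2 and edgeR, ChIP-seq through cutadapt and Bowtie2, on GRCh38. Peak lists were deposited by the authors 1 per ChIP sample, with a peak score of at least 50; peak caller and tool versions: not given in the sources used here. RPKM holds no read totals, so depth is unknown and no count test was run.

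Overlaps of at least 1 bp were found with code written in Python 3.11.15. The counts of AI EZH2 peaks overlapping each other list were checked against bedtools 2.31.1. Exact 95% binomial intervals were found with SciPy 1.17.1. Genes were joined to RefSeq starts by symbol (22429 of 28071), except on chromosome 8, whose starts were not used. Tests used limma 3.58.1 (trend, two-sided) in R 4.3.3 on log2(RPKM + 0.5), with genes at 0.5 RPKM or more in at least 2 libraries, Benjamini-Hochberg adjustment and a threshold of 0.05; the procedure was tested on simulated data. Named genes were those at the 20 highest-scoring members, up to 10 called rises and falls per comparison, list members and the 8 highest in untreated AI; PALD1 and the other genes with a start inside a peak, MAGI2 and TCF20 were added after their values were seen. The members and lists were chosen with earlier results of these data known. Alternatives were other pseudocounts, filters, scalings, gene windows, peak thresholds, a replicate block and leaving out each replicate. RNA immunoprecipitation levels were not used here. The summed level of the luminal marker list is not reported here.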

Additional observations from a re-analysis of the deposited data

Results flagged for a closer look

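In 8 genes near marked EZH2 peaks AI was higher than AD in untreated cells and lower after mock transfection. The difference between these differences passed limma's test in each, and the contrast was added after the directions were seen. The 8 genes were chosen as called in opposite directions in the same fit, so their passing follows largely from that choice and adds no support. How many of all genes had such opposite calls was not counted. On the log2 scale it was -4.28 for OLFM1, -3.68 for NSG1, -2.43 for the metalloprotease TLL2, -2.08 for SCFD2, -1.75 for CAPN2, -1.59 for PARM1, -1.39 for WSCD1 and -1.0 for TCF20. OLFM1 went from 3.47 and 3.72 RPKM in untreated AI to 0.30 and 0.15 after mock, while AD went from 0.08 and 0.11 to 1.48 and 1.58. In SCFD2 the AD libraries stayed between 3.61 and 4.36 RPKM and AI went from 5.97 and 6.14 to 1.19 and 1.03. CAPN2 was higher after mock in both cell types, at 19.71 and 19.57 against 15.17 and 14.62 RPKM in AI and at 28.25 and 30.03 against 5.42 and 7.19 in AD. Over all genes 41.2% had a lower mock difference, and the mitochondrial share moved with transfection as given above; its part was not tested. TCF20, named after its values were seen, was lost with quantile normalization (-0.32, adjusted p = 0.263) and with trimmed-mean scaling (-0.35, adjusted p = 0.228).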

How the results depend on the processing

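No named gene changed direction under an alternative that gave a value, but the median and the split over all genes did: the mock median went from -0.408 to 0.021 with quantile normalization, the untreated split turned with trimmed-mean scaling, and genes whose peak was marked in AD went from 8 higher and 5 lower in untreated AI to 4 and 5. The untreated count of 26 genes was 8 in a fit of those 4 libraries alone, 11 for starts within 1 kb, 73 with gene bodies added, 8 for peaks in both AI lists, 2 for EZH2 scores of at least 100, and 16 to 20 with 1 library left out. The mock count of 41 was 16, 117, 9 and 2 under the same 4 choices of genes, and 33 to 36 with 1 library left out. The siEZH2 count of 1 was 2 in a fit of those 4 libraries alone, and 0 with no filter, with quantile or trimmed-mean scaling, within 1 kb, at scores of at least 100, and without any 1 library (0 to 0). The 2267 members were 1217 in both AI lists, 35 at scores of at least 100, and 1702 or 1782 with 1 AI list. The share marked in AD, 75.4%, was 86.3% in both AI lists, 79.1% at H3K27me3 scores of at least 100, and 57.2% to 80.9% with 1 list left out. The median AI level of 0.005 RPKM was 0.015 with gene bodies added and 1.06 at EZH2 scores of at least 100. The last value rests on the few genes with a start within 5 kb of those 35 members, so it cannot be read as a level of genes near stronger peaks. The added difference of differences, 36 genes, gave 26 to 34 with 1 library left out. With the replicate number as a replicate block the counts were 25, 43, 1 and 36. Across genes, the difference between replicates 1 and 2 correlated at 0.701 between untreated AD and AI and at -0.004 to 0.13 between other groups. Untreated libraries thus shared a difference by replicate number. The mitochondrial share went with it, at 18.36% and 19.61% in replicate 1 and 32.56% and 33.45% in replicate 2 of untreated AD and AI. The main fit did not take the numbers as pairs. The block sets 1 offset for all 6 groups, so it cannot fit a difference found in the untreated groups alone.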
